A study of Mus musculus with 3 samples.

Results

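The zinc, iron and copper handling genes form a set of 44 of the 27671 genes on the array, measured by 67 of its 41174 probes. They were chosen by name. The transporters are the zinc exporters (Slc30a), the zinc importers (Slc39a), the divalent metal transporters (Slc11a), the copper transporters (Slc31a) and the iron exporter Slc40a1. The others are the metallothioneins, both ferritin chains, transferrin and its receptor, heme oxygenase 1, the ferroxidases Cp and Heph and the Steap family, which includes metalloreductases. RNA came from the utero-tubular junction, the narrow passage between uterus and oviduct, of adult CD-1 female mice in estrus. Each of the 3 groups was 1 pool of 10 females on 1 array: females mated with normal males, females mated with vasectomized males, whose semen carries no sperm, and females that had not mated. With 1 array per group there is no replicate, no p-value and no error between animals, and the values compare 3 pools. The time from mating to collection and the strain of the males are not given in the sources used here.

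Cells take up zinc into the cytosol through Slc39a importers and move it out, or into vesicles, through Slc30a exporters, while metallothioneins bind zinc and copper in the cytosol. Iron reaches most cells as transferrin bound to the transferrin receptor, is reduced by Steap proteins, leaves the endosome through Slc11a2 and is stored in ferritin. Slc40a1 (ferroportin) is the exporter of iron, working with the copper-containing ferroxidases Cp and Heph, and the liver hormone hepcidin removes it from the cell surface. Epithelia and phagocytes also use these genes to withhold metals from microbes.

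Signals are given as multiples of the array's 75th percentile signal, and a ratio is the log2 difference between 2 arrays. A gene was called at 2-fold, a log2 ratio of 1. Levels of different probes are not comparable, so only the same probe is compared between arrays. The software's own error of a member's log2 ratio had a median of 0.20 and reached 0.31, over the 39 members well above background. It covers the spot and not the animals. Of the 44 members, 39 were well above background on all 3 arrays by the probe that stands for the gene, and 5 on none: the zinc exporters Slc30a3, Slc30a8 and Slc30a10 and the zinc importers Slc39a5 and Slc39a12. Hepcidin and transferrin receptor 2 carry older names on this array (Hamp1 and Trfr2) and were not among the members. Hamp1 was not well above background on any array, and Trfr2 had a signal of 0.0192 after normal mating, 0.0501 after vasectomized mating and 0.0180 without mating.

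The array of the vasectomized-mated females stood apart from the others. Its 75th percentile signal was 295 units, against 708 units on the normal-mated and 874 units on the not mated array. Spike-in probes of the array were instead brightest there, so that scaling to them would subtract 2.65 from every log2 ratio of vasectomized mating over no mating (and 0.47 from those of normal mating). Statements below that a gene was higher, lower or within 2-fold in a comparison with this array are relative to the 75th percentile, unless spike-in scaling is named. With spike-in scaling, Steap1 was the 1 member of 39 with a ratio of vasectomized over no mating above 0, and only by its brighter probe. Probes of the same gene also disagreed more where this array was involved. Among members with several measured probes, ratios of vasectomized over no mating spread by more than 2-fold in 8 of 13 (51.9% over all genes), and those of normal over no mating in 3 of 13 (11.9% over all genes). All 9 markers of oviduct and uterine epithelium were well above background on the 3 arrays, while at most 3 of 5 hepatocyte markers on the array were on any of them.

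After normal mating, members of the Steap family, the ferroxidases, iron export and heme breakdown were among those higher than without mating. Steap1 was 18.9-fold higher, the ferroxidase Cp 10.45-fold, the iron exporter Slc40a1 7.03-fold and Steap2 6.03-fold. Heme oxygenase 1 (Hmox1), which frees iron from heme, was 3.94-fold higher. The transferrin receptor Tfrc was 2.88-fold higher. The metalloreductase Steap4 was 2.61-fold higher. Its relative Steap3 and the ferroxidase Heph were within 2-fold, with log2 ratios of -0.79 for Steap3 and -0.67 for Heph. The ferritins and metallothioneins lay within 2-fold. Of the 39 members compared, 11 were at least 2-fold higher, 28.2%, beside 9.63% of the 19864 genes compared on these arrays. A single member, Slc39a14, was at least 2-fold lower, 2.56%, beside 12.9% of all genes, and 22.5% of all genes were past 2-fold either way. The median log2 ratio was 0.40 over the members and -0.03 over all genes. No test stands behind these shares. In bulk tissue, more cells of a type and more RNA per cell cannot be told apart. This comparison takes no value from the vasectomized-mated array, apart from the choice of the brightest probe of a gene.

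The Steap family includes metalloreductases, membrane proteins that reduce iron and copper so that transporters can carry them. This family held the member with the largest ratio in both matings, Steap1, whose own reductase activity was not tested. Steap1, measured by a probe at chr5:5742375-5742434 of the mm7 build that the file headers name, had a signal of 17.2 after normal mating, 10.0 after vasectomized mating and 0.910 without mating. Both mated pools stood well above the pool that had not mated, and the log2 ratios were 4.24 after normal and 3.46 after vasectomized mating. With spike-in scaling they were 3.76 and 0.81. A second probe of Steap1 gave signals of 3.84 after normal mating, 0.982 after vasectomized mating and 0.255 without mating, with ratios of 3.92 and 1.95. The direction was thus shared by both Steap1 probes, while the sizes after vasectomized mating differed between them by more than the software's error.

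The other Steap genes differed from Steap1 and from each other. Steap2 had a signal of 0.564 after normal mating, 0.121 after vasectomized mating and 0.0934 without mating, so only the normal-mated pool was past 2-fold by this probe. Its second probe was not well above background without mating and gave at least 5.22-fold after normal mating and at least 6.32-fold after vasectomized mating, so the probes of Steap2 disagree on the vasectomized-mated pool. Steap4, a reductase known to be induced by inflammatory cytokines in fat and liver, had signals of 1.25 after normal mating, 1.04 after vasectomized mating and 0.478 without mating. Its log2 ratio after normal mating was 1.38, and 1.45 by the second probe. After vasectomized mating the ratio was 1.13 by the brighter probe and -0.75 by the other, so no direction is given there. Steap3, the endosomal ferrireductase of developing red cells, was within 2-fold in every comparison, with signals of 0.0422 after normal mating, 0.0804 after vasectomized mating and 0.0729 without mating.

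**Figure D1:**
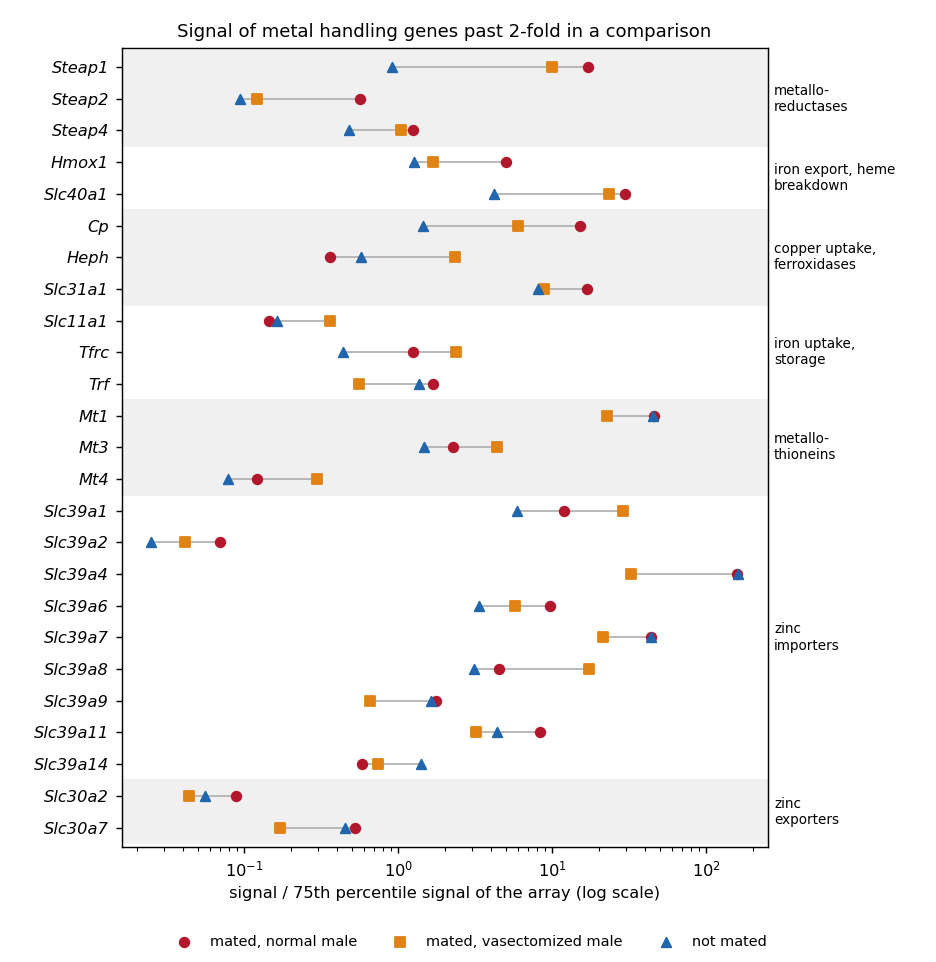
Signal of the 25 members past 2-fold in at least 1 of the 3 comparisons, as a multiple of the array's 75th percentile signal on a log axis, grouped by role. Each row has 1 point per array: normal-mated (circle), vasectomized-mated (square) and not mated (triangle), with no error bars because there is 1 array per group. Steap1 stands at 17.2 after normal mating, 10.0 after vasectomized mating and 0.910 without mating, and Slc40a1 and Cp show the same order of arrays, whereas Slc39a4 stands at 158 and 161 on the normal-mated and not mated arrays and at 32.3 on the vasectomized-mated one; with spike-in scaling the vasectomized-mated points move left.

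Iron export and heme breakdown were represented by Slc40a1 and Hmox1. Slc40a1 (probe at chr1:46145061-46145120, mm7) had a signal of 29.5 after normal mating, 23.4 after vasectomized mating and 4.20 without mating. Both mated pools were past 2-fold, with log2 ratios of 2.81 and 2.48, and the difference between the mated pools was 0.33. Hmox1 had a signal of 4.99 after normal mating, 1.69 after vasectomized mating and 1.27 without mating. Here the normal-mated pool stood apart from both others: its log2 ratio was 1.98 over no mating and 1.56 over vasectomized mating, and that of vasectomized over no mating was 0.42. With spike-in scaling the ratios of vasectomized mating over no mating became -0.16 for Slc40a1 and -2.23 for Hmox1.

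Among ferroxidases, which oxidise iron as it leaves the cell so that transferrin can bind it, the secreted Cp and the membrane-bound Heph differed from each other. Cp (probe at chr3:19721093-19721152, mm7) had a signal of 15.1 after normal mating, 5.97 after vasectomized mating and 1.44 without mating. Its log2 ratios were 3.39 after normal mating and 2.05 after vasectomized mating (-0.59 with spike-in scaling), and the normal-mated pool was 2.52-fold above the vasectomized-mated one. Heph had a signal of 0.363 after normal mating, 2.35 after vasectomized mating and 0.576 without mating. It was within 2-fold after normal mating (-0.67) and 4.07-fold higher after vasectomized mating, a ratio that was -0.62 with spike-in scaling. For normal minus vasectomized mating the log2 ratio of Heph was -2.69, and -0.52 with spike-in scaling.

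The copper importer Slc31a1 was just past 2-fold after normal mating, with signals of 16.7 after normal mating, 8.88 after vasectomized mating and 8.05 without mating. Its second probe gave 0.93, just short of 2-fold, beside 1.06 for the first. After vasectomized mating its probes gave 0.14 and -1.37. Slc31a2, a related protein of endosomes, was within 2-fold in all 3 comparisons by its brighter probe (a second gave 1.22 after vasectomized mating), with signals of 5.76 after normal mating, 6.41 after vasectomized mating and 6.67 without mating.

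In iron uptake, the transferrin receptor Tfrc was printed 10 times on each array, which shows the error between spots. The signal was 1.26 ± 0.0353 after normal mating, 2.38 ± 0.0729 after vasectomized mating and 0.437 ± 0.0292 without mating (SD over 10 spots of 1 pool). The spots of the 3 arrays did not overlap: they spanned 1.21 to 1.30 after normal mating, 2.21 to 2.47 after vasectomized mating and 0.399 to 0.494 without mating. Tfrc was thus 2.88-fold higher after normal and 5.46-fold higher after vasectomized mating, and with spike-in scaling the ratio of vasectomized mating was -0.20. Trf, the transferrin that delivers iron to this receptor, had signals of 1.69 after normal mating, 0.558 after vasectomized mating and 1.37 without mating. It was within 2-fold after normal mating (0.31) and 2.45-fold lower after vasectomized mating.

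Iron storage differed little. Fth1, the ferritin heavy chain, had a signal of 222.5 after normal mating, 255 after vasectomized mating and 183.5 without mating. Ftl1, the light chain, had 52.6 after normal mating, 29.3 after vasectomized mating and 31.5 without mating. All their log2 ratios lay between -0.20 and 0.84, within 2-fold. With spike-in scaling the ratios of vasectomized mating over no mating were -2.17 for Fth1 and -2.75 for Ftl1. Those of normal minus vasectomized mating were then 1.97 and 3.01. Ferritin has many near-identical gene copies, and cross-hybridisation among them was not tested. Slc11a2, which carries iron out of the endosome, was within 2-fold by its brightest probe (0.40 after normal and 0.64 after vasectomized mating), while a dimmer probe gave 1.25 and -0.21. Slc11a1, a metal transporter of the phagosome of macrophages and neutrophils, had signals of 0.144 after normal mating, 0.362 after vasectomized mating and 0.163 without mating. It was 2.22-fold higher after vasectomized mating and within 2-fold after normal mating.

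The promoters of 3 genes that were higher on both mated arrays relative to the 75th percentile are shown, as members that were higher together (with spike-in scaling, Cp and Tfrc were below no mating after vasectomized mating). They are the 250 bases before the RefSeq start of Steap1 (chr5:5749318-5749567, minus strand), Cp (chr3:19956999-19957248, plus strand) and Tfrc (chr16:32608872-32609121, plus strand) on GRCm38.p6, using for Cp and Tfrc the start furthest downstream of the 2 in the table. Capitals mark a metal response element core in Steap1, a C/EBP site in Cp and a hypoxia response core in Tfrc. The other Tfrc start, not printed, has 2 metal response element cores and 1 hypoxia response core in its window. The window of the other Cp start has none of the motifs searched.
Steap1: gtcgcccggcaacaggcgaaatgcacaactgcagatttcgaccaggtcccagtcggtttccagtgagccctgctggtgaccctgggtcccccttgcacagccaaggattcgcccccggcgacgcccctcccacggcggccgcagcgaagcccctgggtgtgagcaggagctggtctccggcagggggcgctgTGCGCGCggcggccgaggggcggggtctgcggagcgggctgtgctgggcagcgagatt
Cp: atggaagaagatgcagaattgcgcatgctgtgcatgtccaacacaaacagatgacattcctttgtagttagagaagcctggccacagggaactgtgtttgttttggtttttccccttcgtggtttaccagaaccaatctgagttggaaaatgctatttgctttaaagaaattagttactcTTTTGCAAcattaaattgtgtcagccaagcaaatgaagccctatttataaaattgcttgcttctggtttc
Tfrc: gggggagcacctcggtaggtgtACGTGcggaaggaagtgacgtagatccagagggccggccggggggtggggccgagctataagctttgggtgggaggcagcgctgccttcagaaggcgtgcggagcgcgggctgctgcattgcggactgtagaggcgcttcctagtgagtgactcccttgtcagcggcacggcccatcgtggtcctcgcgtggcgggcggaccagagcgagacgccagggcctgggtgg

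Both strands of the 300 bases from 250 before to 50 after each start were searched for the metal response element core (TGCACNC or TGCGCNC, bound by MTF1), the hypoxia response core (ACGTG), a STAT site (TTCNNNGAA) and a C/EBP site (TTGCNNAA). RefSeq windows matched 35 of the 44 members, with 48 windows in all, and 9 members were not matched, among them Slc40a1 and Hmox1. The metal response element core was in 20 of 48 member windows (41.7%) and in 25.7% of all 32851 windows. The hypoxia core was in 16 (33.3%, beside 19.6%), the C/EBP site in 7 (14.6%, beside 10.8%) and the STAT site in 3 (6.25%, beside 8.30%). Marked motifs in the printed sequences do not overlap. A match describes letters and not binding, and several windows belong to the same gene. Windows of the same gene can overlap, as those of Tfrc do, so a site can be counted in more than 1 window.

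**Figure D2:**
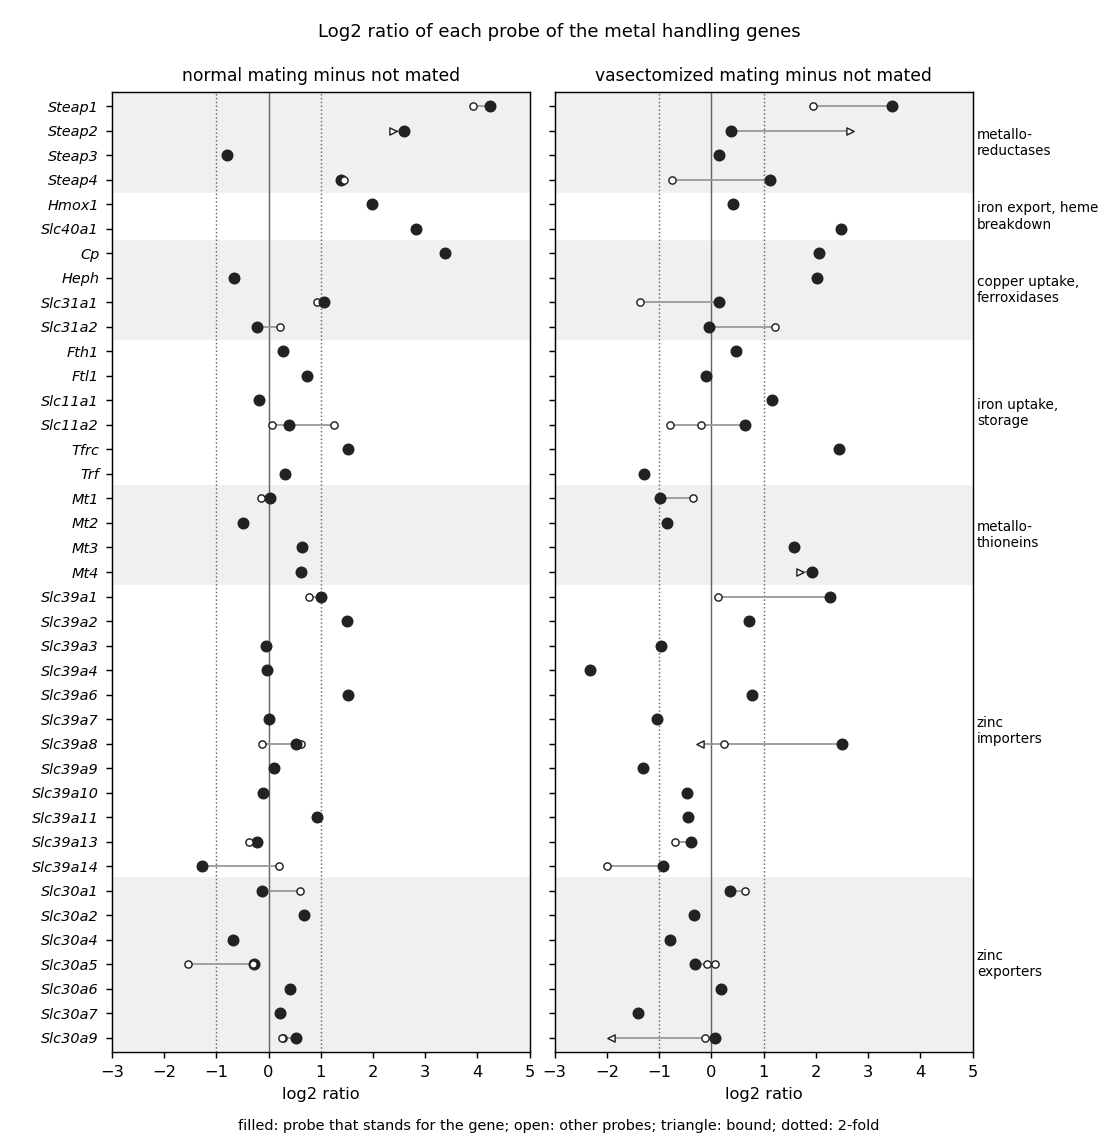
Log2 ratio of every compared probe of the 39 members, for normal mating minus not mated (left) and vasectomized mating minus not mated (right), grouped by role. Filled points are the probe that stands for the gene, open points its other probes, triangles bounds, and dotted lines 2-fold. On the left the probes of Steap1 lie at 3.92 and 4.24, whereas on the right those of Steap4 lie at -0.75 and 1.13; with spike-in scaling every point on the right would lie 2.65 lower.

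All 4 metallothioneins were within 2-fold after normal mating, and 2 were past it after vasectomized mating. Of all genes, 22.5% were past 2-fold either way after normal mating and 41.9% after vasectomized mating. Mt1 and Mt2 are the inducible forms of most tissues and textbook targets of zinc, glucocorticoids and cytokines. Under 75th percentile scaling they lay within 2-fold of no mating in both matings, with Mt1 close to the threshold after vasectomized mating. Mt1, printed 10 times, had a signal of 46.0 ± 1.50 after normal mating, 22.8 ± 0.865 after vasectomized mating and 44.8 ± 0.871 without mating (SD over 10 spots of 1 pool). The spots of the normal-mated and not mated arrays overlapped, and those of the vasectomized-mated array lay below both. Its log2 ratio was 0.04 after normal mating and -0.98 after vasectomized mating, and a second, dimmer probe gave -0.14 and -0.35. Mt2 had a signal of 99.8 after normal mating, 78.1 after vasectomized mating and 141 without mating, with ratios of -0.49 and -0.85, neither past 2-fold. With spike-in scaling the ratios of vasectomized mating over no mating were -3.62 for Mt1 and -3.49 for Mt2.

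Mt3, known from brain, and Mt4, known from stratified epithelia, were the 2 past 2-fold after vasectomized mating. Mt3 had signals of 2.28 after normal mating, 4.39 after vasectomized mating and 1.47 without mating, and was 2.99-fold higher after vasectomized mating (log2 ratio -1.06 with spike-in scaling). Mt4 had 0.121 after normal mating, 0.298 after vasectomized mating and 0.0782 without mating and was 3.81-fold higher after vasectomized mating (-0.72 with spike-in scaling). After normal mating their log2 ratio was 0.63 each. The zinc-responsive exporter Slc30a1, like Mt1 a textbook target of MTF1, was within 2-fold in each comparison, with signals of 1.06 after normal mating, 1.48 after vasectomized mating and 1.16 without mating.

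The promoters of Mt1 (chr8:94178839-94179088) and Mt2 (chr8:94172368-94172617), both on the plus strand of GRCm38.p6, are shown as the known carriers of metal response elements. Capitals mark metal response element cores, at position -23 from the RefSeq start in Mt1 and at -223, -128 and -50 in Mt2, a hypoxia core at -79 in Mt1 and a C/EBP site at -12 in Mt2.
Mt1: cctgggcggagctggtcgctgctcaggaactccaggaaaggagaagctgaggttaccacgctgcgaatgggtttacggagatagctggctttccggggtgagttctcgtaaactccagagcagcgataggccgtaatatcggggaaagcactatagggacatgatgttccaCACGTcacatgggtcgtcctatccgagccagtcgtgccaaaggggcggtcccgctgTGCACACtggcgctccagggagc
Mt2: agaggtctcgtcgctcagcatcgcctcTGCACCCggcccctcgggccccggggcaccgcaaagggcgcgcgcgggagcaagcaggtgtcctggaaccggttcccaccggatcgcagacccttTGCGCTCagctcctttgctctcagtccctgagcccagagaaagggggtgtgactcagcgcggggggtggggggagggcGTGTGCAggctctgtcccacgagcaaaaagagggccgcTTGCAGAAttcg
A further 2 cores in Mt1 and 1 in Mt2 lie within the 50 bases after the start and are not printed.

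Zinc importers went both ways. Of 12 compared after normal mating, 3 were at least 2-fold higher and 1 lower, beside 9.63% and 12.9% of all genes, with a median log2 ratio of 0.05. Slc39a6, an importer described as oestrogen-responsive in human breast cells, had signals of 9.62 after normal mating, 5.74 after vasectomized mating and 3.36 without mating, and was 2.87-fold higher after normal mating. Slc39a2 was 2.82-fold higher there, with signals of 0.0700 after normal mating, 0.0411 after vasectomized mating and 0.0249 without mating, but its log2 ratio was 0.69 with normexp background correction in place of 1.49, below 2-fold. Slc39a1, a plasma membrane importer of many tissues, had 11.9 after normal mating, 28.7 after vasectomized mating and 5.91 without mating, a ratio of 1.01 after normal mating that sits at the threshold (0.78 by its second probe). After vasectomized mating the probes of Slc39a1 gave 2.28 and 0.13 (-0.37 for the first with spike-in scaling). The importer Slc39a11 was just short of 2-fold after normal mating, at 0.92, with signals of 8.32 after normal mating, 3.20 after vasectomized mating and 4.39 without mating.

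Slc39a14, which carries zinc and other divalent metals and is induced by interleukin 6 in liver, was the 1 member past 2-fold downward after normal mating, by its brighter probe. That probe had signals of 0.579 after normal mating, 0.735 after vasectomized mating and 1.40 without mating, while the second gave 0.615 after normal mating, 0.134 after vasectomized mating and 0.536 without mating. The log2 ratios after normal mating were -1.27 and 0.20, so the probes do not share a direction. After vasectomized mating they were -0.93 and -2.00.

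Slc39a4 is the importer that takes up dietary zinc in the intestine. Its probe (chr15:76694988-76695047, mm7) had a signal of 158 after normal mating, 32.3 after vasectomized mating and 161 without mating. The vasectomized-mated pool was 4.99-fold below the pool that had not mated, the largest difference downward among the members in this comparison, and the normal-mated pool was 4.88-fold above it. Slc39a7, which releases zinc from the endoplasmic reticulum, was also lowest after vasectomized mating, with 43.9 after normal mating, 21.2 after vasectomized mating and 43.9 without mating. So was the Golgi protein Slc39a9, with 1.75 after normal mating, 0.659 after vasectomized mating and 1.63 without mating, and their log2 ratios after vasectomized mating were -1.05 and -1.30. Slc39a4, Slc39a7 and Slc39a9 have 1 probe each.

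Slc39a8, an importer of zinc and manganese, had signals of 4.50 after normal mating, 17.5 after vasectomized mating and 3.11 without mating by its brightest probe. That probe was 5.62-fold higher after vasectomized mating, but a second gave 0.24 on the log2 scale and the remaining probe was not well above background on that array. The size after vasectomized mating thus rests on 1 probe of Slc39a8, and with spike-in scaling the brightest probe gave -0.15. Slc39a3, Slc39a10 and Slc39a13 were within 2-fold in every comparison.

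Zinc exporters were within 2-fold throughout after normal mating: 0 of 7 compared were past 2-fold in either direction, beside 22.5% of all genes, with log2 ratios from -0.68 for Slc30a4 to 0.67 for Slc30a2. After vasectomized mating 1 of 7 was lower, beside 16.4% of all genes: the Golgi exporter Slc30a7, with signals of 0.527 after normal mating, 0.171 after vasectomized mating and 0.451 without mating, and a log2 ratio of -1.40. With normexp this ratio was -0.65, below 2-fold. A second probe of Slc30a7 was not well above background on any array, so the call rests on 1 probe. Further probes of this gene carry an older name on the array (2610034N15Rik) and were not among the members. Slc30a5, Slc30a6 and Slc30a9 were within 2-fold in both matings by their brightest probe, while a dim probe of Slc30a5 gave -1.55 after normal mating and a dim one of Slc30a9 gave at least 3.80-fold lower after vasectomized mating.

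After vasectomized mating, counted over all members, 11 of 39 were at least 2-fold higher than without mating (28.2%), beside 25.5% of 19546 genes. Another 5 were at least 2-fold lower (12.8%), beside 16.4%, and 41.9% of all genes were past 2-fold either way. Both shares lay near those of all genes, and the median was 0.14 over members and 0.16 over all genes. With spike-in scaling 0 members were at least 2-fold higher and 31 lower in this comparison. Of the 19546 genes, 229 were then higher and 16415 lower, and the median of all genes was -2.47. The higher members were Steap1, Slc39a8, Slc40a1, Tfrc, Slc39a1, Cp, Heph, Mt4, Mt3, Slc11a1 and Steap4, and the lower ones Slc39a4, Slc30a7, Slc39a9, Trf and Slc39a7.

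**Figure D3:**
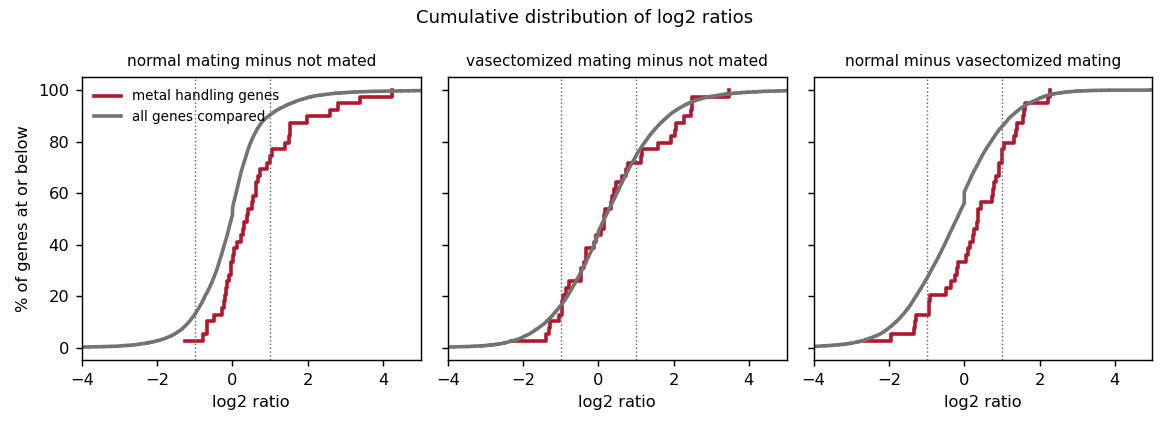
Cumulative percent of genes at or below each log2 ratio, for the 39 members and for all genes compared, in normal mating minus not mated, vasectomized mating minus not mated and normal minus vasectomized mating. Ratios limited by background enter as bounds, which makes the step of all genes at 0. The members lie to the right of all genes in the left panel (medians 0.40 and -0.03) and close to them in the middle one (0.14 and 0.16), with dotted lines at 2-fold; spike-in scaling would shift both curves of a panel together.

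The direct comparison set mating with normal males against mating with vasectomized males. Of 39 members, 11 were at least 2-fold higher after normal mating (28.2%), beside 14.1% of 19869 genes, and 5 were lower (12.8%), beside 26.8%, and 40.9% of all genes were past 2-fold either way. The median was 0.35 over members and -0.20 over all genes. Higher after normal mating were Slc39a4 (log2 ratio 2.29), Steap2 (2.22), Slc30a7 (1.63), Trf (1.60), Hmox1 (1.56), Slc39a9 (1.41), Slc39a11 (1.38), Cp (1.33), Slc39a7 (1.05), Mt1 (1.01) and Slc30a2 (1.00, and -0.40 with normexp background correction). Lower were Heph (-2.69), Slc39a8 (-1.96), Slc11a1 (-1.33), Mt4 (-1.30) and Slc39a1 (-1.27). A second probe gave -0.28 for Steap2, 0.21 for Mt1, -0.36 for Slc39a8 and 0.65 for Slc39a1, and with the median over probes these 4 were below 2-fold. With normexp Slc30a7 was at 0.89, also below 2-fold. With spike-in scaling 34 members were at least 2-fold higher and 0 lower, beside 15381 higher and 254 lower of the 19869 genes. Slc39a8, Slc11a1, Mt4 and Slc39a1 changed sign.
This comparison shares its normal-mated and vasectomized-mated arrays with the comparisons above. For Slc39a4, Slc39a7, Slc39a9, Slc30a7 and Trf the normal-mated pool was within 2-fold of no mating, and the vasectomized-mated pool was past it. For Hmox1 and Steap2, by its brighter probe, the vasectomized-mated pool was within 2-fold of no mating and the normal-mated pool was past it. With spike-in scaling their ratios of vasectomized over no mating were -2.23 and -2.27.

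Other genes of metal handling, from lists drawn up by role, are given by count. After normal mating, when 9.63% of all genes passed 2-fold upward and 12.9% downward, 3 of 19 iron regulation genes were higher and 1 lower. Of 20 genes of heme synthesis, transport and breakdown, 1 was higher and 3 lower, and of 12 copper handling genes 0 were past 2-fold. Of 7 zinc sensing and zinc binding genes, 2 were higher and 0 lower. The higher ones were S100a8 and S100a9, which are also among the neutrophil markers below. The NRF2 list holds 10 genes: NRF2 itself (Nfe2l2), its regulator Keap1 and targets that like Hmox1 respond to oxidative stress. Of these, 1 was higher and 0 lower. Of 8 genes of the interleukin 6 and STAT3 axis 4 were higher and 0 lower. After vasectomized mating, when 25.5% of all genes were higher and 16.4% lower, 5 iron regulation genes were higher and 3 lower of 18, 5 heme genes higher and 1 lower of 20, and 5 copper genes higher and 1 lower of 12. There, 3 zinc sensing and binding genes were higher (S100a8, S100a9 and Mtf1) and 1 lower of 7. Of the 10 genes of the NRF2 list, 3 were higher, Nfe2l2 among them, and 4 lower, Keap1 among them. Of 7 interleukin 6 axis genes, 3 were higher and 1 lower. All these counts are before spike-in scaling. The shares of iron regulation and heme genes that were higher there lay near that of all genes. Among single genes, Lcn2, which binds iron-carrying siderophores, had log2 ratios of 6.25 after normal and 3.32 after vasectomized mating, and haptoglobin (Hp), which binds free haemoglobin, 2.28 and 2.06, while hemopexin (Hpx), which binds heme, had -1.98 and -0.29.

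Markers of several cell types also differed between the arrays. Of 10 neutrophil markers compared, 9 were at least 2-fold higher after normal mating (Mpo was not) and 9 after vasectomized mating (Ltf was not). Their summed signal was 286 after normal mating, 148 after vasectomized mating and 96.8 without mating, with Ltf at 225 after normal mating, 57.9 after vasectomized mating and 96.3 without mating. Without Ltf the sum was 61.2 after normal mating, 89.7 after vasectomized mating and 0.516 without mating. Sums over a list serve only to compare arrays, since each is weighted to its brightest probes. Macrophages, which recycle iron through Hmox1 and Slc40a1, had 1 of 10 markers higher and 2 lower after normal mating, with summed signals, mostly from Lyz2, of 42.7 after normal mating, 144 after vasectomized mating and 44.1 without mating, and 5 higher and 1 lower after vasectomized mating. Epithelial markers were higher in 4 of 9 cases after normal mating and in 1 of 9 after vasectomized mating, where 2 were lower, with sums of 1210 after normal mating, 1016 after vasectomized mating and 892 without mating. Endothelial markers were lower in 6 of 6 cases after normal mating. After vasectomized mating 4 of 6 were lower and 1, Cdh5, was higher, with a log2 ratio of 2.44. Their summed signal was 3.298 after normal mating, 16.52 after vasectomized mating and 10.44 without mating. Without Cdh5 it was 2.233 after normal mating, 3.978 after vasectomized mating and 8.133 without mating. Red blood cell markers were past 2-fold in 0 of 4 cases in either mating. Ciliated cell markers were higher in 7 of 7 cases after normal and in 5 of 7 after vasectomized mating, with sums of 96.4 after normal mating, 89.3 after vasectomized mating and 24.1 without mating. Stroma markers were lower in 5 of 8 cases after normal mating, and 2 were higher after vasectomized mating. Markers of ovary and cumulus cells summed to 1.26 after normal mating, 12.4 after vasectomized mating and 0.530 without mating. The part of these cell types in the values of the members was not tested.

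**Figure D4:**
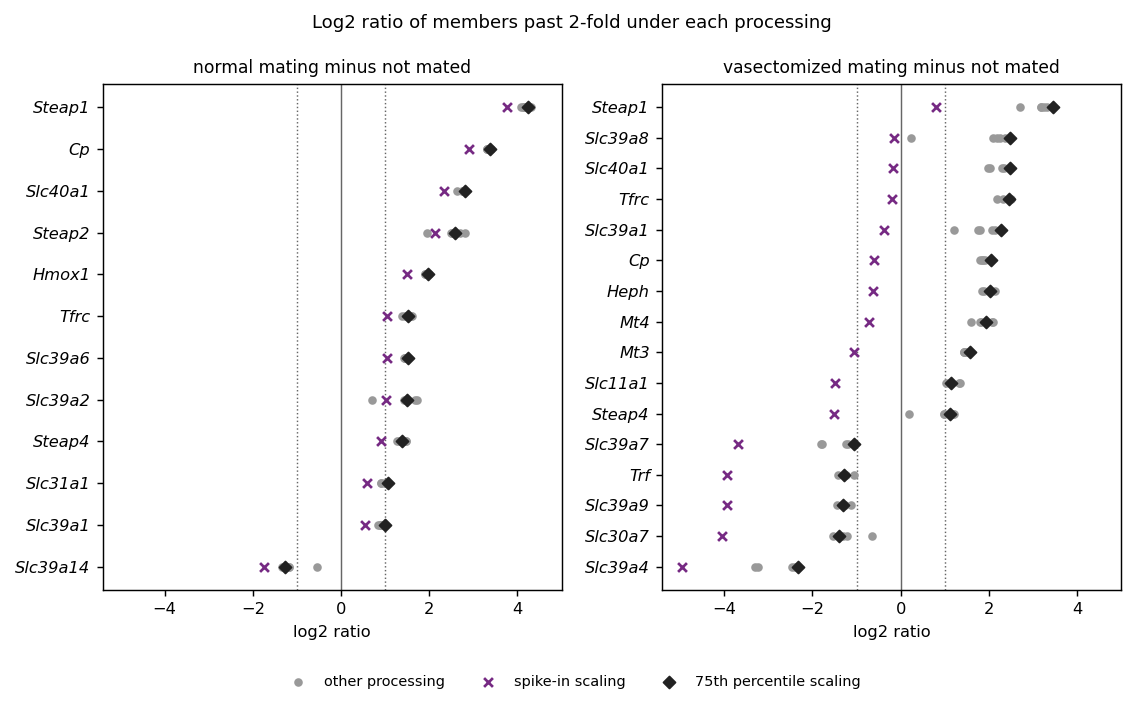
Log2 ratio of each member past 2-fold, for normal mating minus not mated (left, 12 members) and vasectomized mating minus not mated (right, 16 members), under 75th percentile scaling (diamonds), 8 other processings (grey) and spike-in scaling (crosses). On the left 8 of the 11 higher members stayed past 2-fold under all 8, among them Steap1, Cp, Slc40a1, Steap2 and Hmox1; on the right the grey points keep the sign of the diamonds, and with spike-in scaling every member but Steap1 lies below 0.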

How the data were processed

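Agilent Feature Extraction made the deposited intensity of each single-colour (Cy3) spot, with background subtraction and detrending inside an array but no scaling across arrays, per the file headers. Those headers name version 10.5.1.1, and the submitters' processing notes version 9.5.3. All 3 arrays are on 1 slide with 1 scan time. From the deposited intensity, log2 values were centred on each array's 75th percentile (43379 spots, controls left out) and spots of 1 probe were averaged, leaving out flagged outliers. No spot was saturated. R 4.3.3 with limma 3.58.1, and Python 3.11.15 with pandas 2.3.3 and matplotlib 3.10.9 were used.

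Members were taken by the name in the files. For counts over all genes, 41174 probes were named through the RefSeq table of GRCm38.p6, 22951 by accession, 6659 by symbol and 3109 by synonym, and 8455 kept the file's name. A gene is its probe with the highest mean signal, taken first from probes detected over background on any array. Where 1 of 2 arrays was not well above background, the ratio is a bound against the higher of that array's lowest signal well above background and the probe's own. A gene was called at 2-fold. Named genes are every member past 2-fold in a comparison, others to complete a role, and up to 4 genes of a context list.

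The members and lists were chosen with earlier results of these data known. The counting step was tested on simulated data. The number of arrays limits the precision. Promoter sequences are RefSeq's on GRCm38.p6. Replicate spots of a probe had a median SD of 0.06 on the log2 scale on each array, which leaves out animals. The alternatives tried were normexp background correction, quantile and cyclic loess scaling, a percentile over detected probes, 2 filters on dim probes, the median probe, keeping outlier spots and spike-in scaling, which was chosen after seeing the data.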

Additional observations from a re-analysis of the deposited data

How the results depend on the processing

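No paired analysis was possible because each group has 1 array, and no array could be left out. Of the 54 alternative counts of members past 2-fold, 45 were within 1.5 times the reported count. With the median over probes, 0 members were lower after normal mating (1 as reported) and 3 were lower in normal minus vasectomized mating (5 as reported). The percentile over detected probes gave 8 lower after vasectomized mating (5 as reported), and no filter on dim probes gave 9 lower in normal minus vasectomized mating. Over all genes, normal over no mating had 1912 higher and 2557 lower as reported, 1378 and 933 with normexp and 2208 and 1980 with cyclic loess, so the share of higher calls was 42.8%, 59.6% and 52.7%, while for members it was 91.7%, 90.0% and 90.0%. For vasectomized over no mating that share was 60.9% as reported and 77.1% with normexp over all genes, where normexp gave 1717 lower in place of 3202, and for members 68.8% in both and 55.6% with the percentile over detected probes. The median of all genes after vasectomized mating was 0.16 as reported, 0.40 with normexp and 0.03 with the percentile over detected probes. For normal minus vasectomized mating, the members' share was 68.8% as reported, 78.9% with quantile scaling and 80.0% with the median over probes.

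Spike-in scaling, chosen after seeing the data, gave 4 members lower after normal mating and 0 higher and 31 lower after vasectomized mating. In normal minus vasectomized mating it gave 34 higher and 0 lower. Over all genes, 5178 of 19864 were lower after normal mating and 16415 of 19546 after vasectomized mating. In normal minus vasectomized mating 15381 of 19869 genes were higher. Spike-in scaling thus shifted all genes and not the members alone. The scaling turned the sign after vasectomized mating of Cp (-0.59), Heph (-0.62), Mt3 (-1.06), Mt4 (-0.72), Slc11a1 (-1.49), Slc39a1 (-0.37), Slc39a8 (-0.15), Slc40a1 (-0.16), Steap4 (-1.52) and Tfrc (-0.20). In normal minus vasectomized mating it turned Mt4 (0.87), Slc11a1 (0.84), Slc39a1 (0.90) and Slc39a8 (0.22). These turns follow from a constant shift of each ratio, whose cause was not tested. Normexp turned Slc30a2 (-0.40) in normal minus vasectomized mating, and the cause was not tested. Under the 8 other alternatives, 8 of 11 members higher after normal mating stayed past 2-fold in all, as did 9 of 11 higher and 4 of 5 lower after vasectomized mating, and 7 of 11 higher and 3 of 5 lower in normal minus vasectomized mating. The 1 member lower after normal mating, Slc39a14, did not (0 of 1).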
